A study of Bubalus bubalis with 8 samples.

Results

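Primary mammary epithelial cells (MECs) from riverine buffalo that had recovered for 16 h after a heat exposure were set against the same kind of cells that had recovered for 4 h. The comparison used 2 of the 8 arrays of the study, chosen by their labels, the 16 h array and the 4 h array, which were hybridised on the same slide (slide 2, together with the 30 min and 2 h arrays). All cells came from a culture started from the mammary tissue of 1 animal, were used after passage 10 and grew in collagen-coated plates. Both samples compared here were held at 42 °C for 1 h, were returned to 37 °C, and differ in the labels by recovery time only, while the control of the study (CTR) stayed at 37 °C throughout. Each condition has 1 array, so no difference below has a replicate check and none carries a p-value.

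RNA was measured by 1-colour hybridisation to bovine 60-base probes. A level below is the log2 of a probe's processed signal minus the 75th percentile of its array, and a difference is the 16 h level minus the 4 h level. A probe is called bright where the scanner software marked it well above background. Of 43653 probes on the array, 42573 lay outside a block of 48 rows and 22 columns that was dark on the 16 h array and was left out, and 16216 of these were bright on at least 1 of the 2 arrays and were compared. Where a gene had several probes, its level is the mean over those bright on both arrays. The only error these arrays give is the spread between probes of 1 gene and between repeated spots of 1 probe. Between probes the pooled SD was 0.48 over 2182 genes. Between repeated spots the SD was 0.27 at 4 h (21 probes) and 0.48 at 16 h (16 probes). Neither holds variation between cultures.

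In the mammary gland, secretory luminal cells make casein, whey protein and milk fat, basal myoepithelial cells surround them, and fibroblasts, vessels and leukocytes lie in the stroma around the ducts. Complement, lactoferrin and serum amyloid A belong to the innate defence of the udder and can be made by the epithelium itself as well as by leukocytes. Cholesterol synthesis is switched on as a unit by the transcription factor SREBP2, and milk secretion needs it for membrane and fat globule. Heat shock proteins are chaperones that HSF1 induces within minutes to hours of heat and that decline during recovery.

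The labels call both samples MECs, and most keratins of mammary epithelium were bright on both arrays, KRT18 being dim at 4 h. KRT5, a basal keratin, stood at 6.36 at 4 h and 6.53 at 16 h, and KRT8, a luminal keratin, at 4.15 and 4.71. The 7 milk proteins on the array were also bright on both. Beta-casein (CSN2) stood at 6.73 at 4 h and 7.37 at 16 h, and beta-lactoglobulin (PAEP) at 6.82 and 7.78, where 1 of its 3 probes was saturated at 4 h. On the CTR, 8 h, 12 h and 24 h arrays the median level of the same 7 proteins lay between -3.36 and -2.01, and 1 of the 7 was bright on each. The others were dim there, so these medians are readings of dim probes.

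The 16 h array was the dimmer of the pair. Its 75th percentile signal was 121 against 356 at 4 h, 25.6% of its probes were bright against 37.6%, and the lowest bright level was -0.08 against -1.73. A gene can therefore drop out of detection at 16 h at a level that is still bright at 4 h. For a probe bright on 1 array only, the fold below is a bound, written "at least", in which the dim array is set to its lowest bright level or to the probe's own value, whichever is higher.

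Of the 16216 probes, 573 (3.53%) were at least 3-fold higher at 16 h and 580 (3.58%) were at least 3-fold lower, which put 7.11% past 3-fold in either direction around a median difference of -0.04. The higher and the lower probes differed in where they were bright. Among the higher probes, 332 were bright on both arrays and 241 at 16 h only, and all 573 kept a 3-fold difference at the bound. Of the lower probes 57 were bright on both arrays and 523 at 4 h only, and 136 remained at the bound. The lowest bright levels (-0.08 at 16 h, -1.73 at 4 h) themselves lie over 3-fold apart. A probe bright at 16 h only therefore passes the bound almost by construction, while a probe bright at 4 h only must be far brighter to pass. All 241 probes bright at 16 h only were 3-fold higher. A list gene dim at 4 h thus counts as higher largely through the choice of probes compared. The bound counts thus cannot show which direction was more firmly measured. Over the 10723 probes bright on both arrays the levels correlated across probes (Pearson r = 0.93, probes sharing the 2 arrays and no replicates), and the middle of the differences ran from -0.26 to 0.52 (quartiles). The split depended on the scale, with 563 higher and 1260 lower after quantile normalization, 412 and 2774 after loess, and 263 and 5073 when the array median replaced the 75th percentile, which moved the median difference to -1.24. The sign of a difference well under 3-fold is therefore tied to the scale used here. Counted by gene name, 406 of 10404 (3.9%) were higher and 279 (2.68%) lower. These shares are the background for each list count below.

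**Figure D1:**
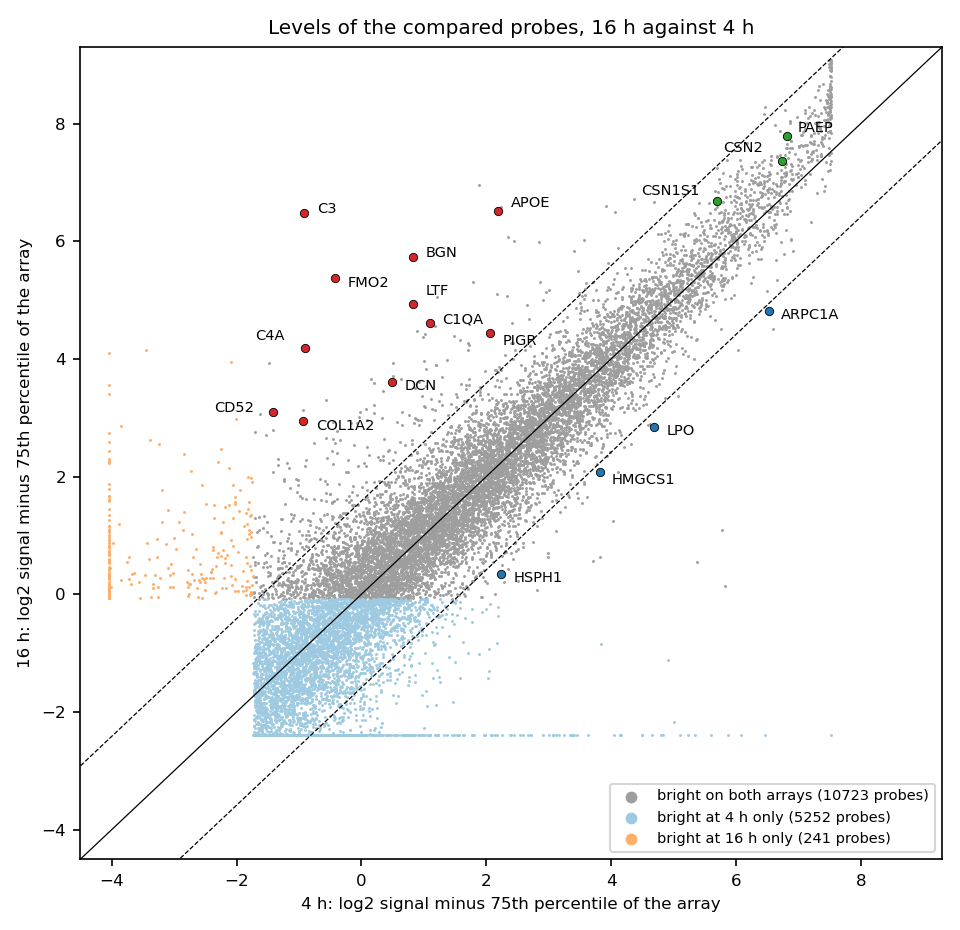
Level of each of the 16216 compared probes at 4 h (x axis) and 16 h (y axis), in log2 signal minus the 75th percentile of the array, with the line of equality (solid) and of a 3-fold difference (dashed) and named genes as larger points (red higher, blue lower, green under 3-fold). Higher genes such as C3, APOE and BGN stand far above the dashed line at high 16 h levels, whereas most lower probes are dim at 16 h and lie in the band at the bottom.

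Differences also followed position on the 16 h array. Among probes bright on both arrays the median difference was 0.66 in rows 1 to 38 and -0.38 in rows 77 to 190, the rows around the left-out block. Those rows held 18.1% of the compared probes but 389 of the 580 lower ones and 60 of the 573 higher ones. Without them 513 probes were higher and 191 lower of 13274. With the median of the surrounding probes (within 10 spots) subtracted from each, 489 were higher and 424 lower. The lower count therefore depended on position more than the higher one. Among the list genes given below as at least 3-fold higher, EHF, AIF1, BST2, KLF2, BCL2 and CIDEC came under 3-fold with the local median subtracted (1.51, 1.36, 1.35, 1.57, 1.54 and 1.48), and among the lower ones NSDHL and SC5DL did (-1.30 and -1.21).

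**Figure D2:**
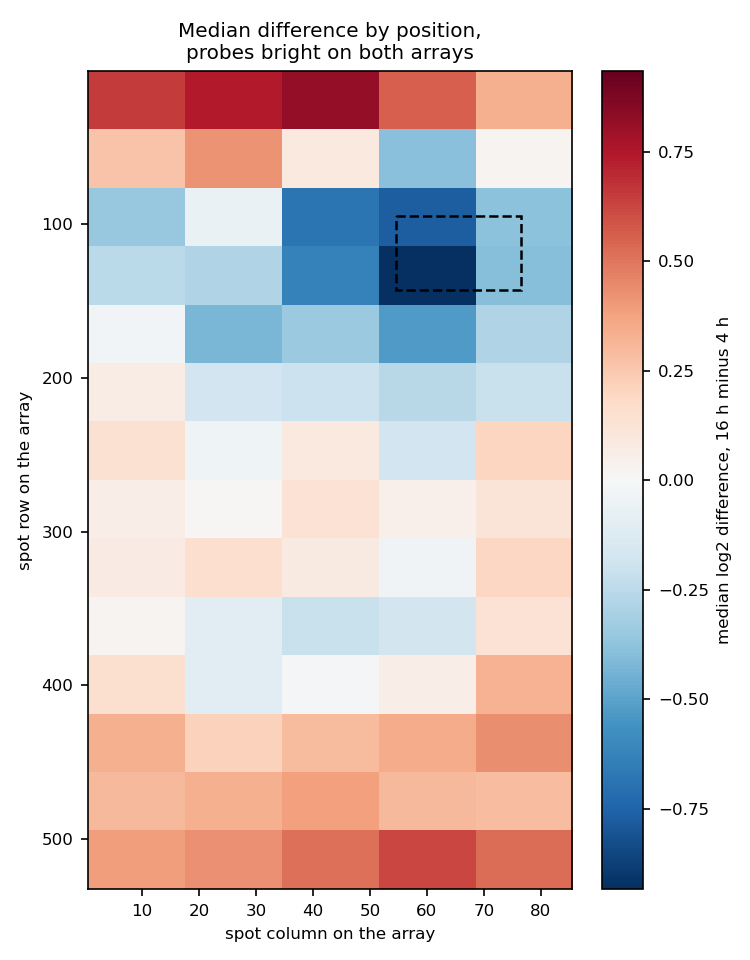
Median log2 difference (16 h minus 4 h) of probes bright on both arrays in 70 tiles of the array, by spot column (x axis) and spot row (y axis), with the left-out block dashed. Tiles run from -0.93 beside the block to 0.82 at the top edge.

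Probes that carry the main differences are printed here so that the measured transcript can be located. Each line gives the first 30 of the 60 designed bases of a probe, 5′ to 3′, with the position of the whole probe on the bovine assembly Btau_3.1 and its strand as the array file gives them. The first group of 6 was higher at 16 h and covers complement, matrix and leukocyte genes, and the last 3 were lower and cover a chaperone, cholesterol synthesis and the cell cycle. No exon or untranslated region can be stated for them, because no annotation of that assembly was used.
C3, chr7:16354080-16354139, plus strand: tacatcatcgggaaggacacctgggtggag
C4A, chr23:27164119-27164178, minus strand: gactcctgctgtgccgggtaccctgaacag
BGN, chrX:23030714-23030773, plus strand: gggtttcaaaccatcacacccagcttgagg
DCN, chr5:23724213-23724272, minus strand: gctcccaagaaaaccctcatttttataacc
C1QA, chr2:134672741-134672800, minus strand: tgctttagctgcctaaatggagatcatgtc
CD52, chr2:131064989-131065048, minus strand: aacacagggaggttctaacatggaggagga
HSPH1, chr12:29619632-29619691, plus strand: ttgtacagtgcgttgtcatgtggaggtgcg
HMGCS1, chr20:33448201-33448260, plus strand: gcatcaattgtgcaccttattaacagtgag
CCNA2, chr6:3386872-3386931, plus strand: ctcaacccaccagagacactaaatgtgtaa

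The largest difference among genes bright on both arrays was that of complement C3, the central component of the complement cascade. The printed C3 probe stood at -0.91 at 4 h and 6.48 at 16 h, a difference of 7.39 or 168-fold. Of the 10 C3 probes on the array, 8 were bright at 16 h and 1 at 4 h, so its level at 4 h rests on that probe. C4A, which encodes complement C4, went from -0.90 to 4.18, and C1QC, a chain of complement C1q, from -0.57 to 3.30. FMO2, a flavin monooxygenase, was higher by 5.79, with 1 probe bright on both arrays and another 2 bright at 16 h only.

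Acute phase and mammary defence genes were spread widely. Of 22 listed genes 11 were measured, of which 6 were at least 3-fold higher and 2 lower, and the median difference was 1.65 against 0.00 over all gene names. Lactoferrin (LTF), the iron-binding protein of milk and neutrophil granules, stood at 0.82 at 4 h and 4.94 at 16 h, higher by 4.11 ± 0.50 (SD between 3 probes). The serum amyloid genes M-SAA3.2 and SAA3 were higher by 2.42 and by 1.68 ± 0.68 (SD between 5 probes). LBP, which hands bacterial lipopolysaccharide to CD14, was higher by 1.65, and ceruloplasmin (CP), the copper-carrying plasma protein, was dim at 4 h and at least 4.04-fold higher. LCN2, a siderophore-binding defence protein, stood at 1.86 and 1.5. The lower members were the beta-defensins DEFB1 and TAP, both dim at 16 h. DEFB1 was at least 2.11-fold lower in a mean whose probes differed widely (SD 2.93 between 2 probes) and of which the lower lay in row 171, and TAP had no fold at the bound.

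Leukocyte genes were higher at 16 h in several lists. Of the 8 measured general leukocyte genes 6 were at least 3-fold higher, against 3.9% of all gene names, with a median of 2.28. CD52, a small surface glycoprotein of lymphocytes and monocytes, stood at -1.42 at 4 h and 3.1 at 16 h. CD53, a leukocyte tetraspanin, was dim at 4 h and at least 9.87-fold higher, and ARHGDIB, a gene of blood cells, at least 9.28-fold. ITGB2, the shared beta chain of leukocyte integrins, was higher by 2.20 ± 0.13 (SD between 2 probes), and the signalling adaptor TYROBP by 2.27 ± 0.18 (SD between 2 probes). The remaining pair did not move with them. PTPRC (CD45), a defining leukocyte gene, stood at 3.40 and 3.37, and LCP1, an actin-bundling protein, at 2.66 and 2.70. CORO1A, also defining, was dim on both arrays, and the probe of LAPTM5 lay in the left-out block and was not measured.

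Among granulocyte and monocyte genes 7 of 14 were higher, against 3.9% of all gene names, and none of the 14 lower, with a median of 1.60. C1QA and C1QB, chains of complement C1q that macrophages make, stood at 1.09 and 1.18 at 4 h and at 4.60 and 4.56 at 16 h. CSF1R, the macrophage growth factor receptor, was higher by 2.65 ± 0.47 (SD between 2 probes), and AIF1 by 1.73. The Fc receptors FCGR1A and FCGR3A were dim at 4 h and at least 4.77-fold and 4.57-fold higher. S100A8, a calcium-binding alarmin, stood at 3.70 and 4.17, and S100A12 at 2.48 and 2.44. CSF3R, the granulocyte colony-stimulating factor receptor, stood at -1.11 at 4 h and was dim at 16 h, with no fold at the bound. CD14 stood at 2.25 and 2.39. Outside the lists, NCF4, a subunit of the phagocyte NADPH oxidase, was higher by 5.41, FOLR2, a folate receptor of macrophages, by 4.07 and APOE, a lipid carrier that macrophages also secrete, by 4.33 ± 0.76 (SD between 3 probes).

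Of 16 T and NK cell genes 6 were measured, 3 of them bright on both arrays. With a median of 2.76, 4 were higher, against 3.9% of all gene names. The chemokine CCL5 was higher by 2.80 ± 0.22 (SD between 2 probes), while NKG7, GZMB and CD3E were dim at 4 h and at least 5.68-fold, 4.79-fold and 3.77-fold higher. These 3 were compared only because they were bright at 16 h, and all 241 probes bright at 16 h only were 3-fold higher. The count of 4 and the median of 2.76 therefore rest largely on the choice of probes compared. CD3E stood at 0.18 at 16 h, close to the lowest bright level. TCRA, the T cell receptor alpha gene, was higher by 4.21 on the 1 of its 15 probes bright on both arrays. Another TCRA probe was dim at 4 h and at least 14.7-fold higher. CD247, the zeta chain of the same receptor, stood at 3.50 and 3.69, and the defining genes CD2 and CD3D were dim on both arrays. None of 4 measured B and plasma cell genes reached 3-fold.

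Antigen presentation genes were higher as well. All 5 measured genes of MHC class II, which presents peptides to helper T cells, lay above 0. Of these genes 4 were at least 3-fold higher (median 2.16), against 3.9% of all gene names. BOLA-DRA stood at 0.32 at 4 h and 3.1 at 16 h, and BoLA-DRB3 at -0.45 and 2.64 on the probe bright on both arrays. Of its other probes 1 was at least 5.3-fold higher and 1, in row 174, was dim at 16 h and at least 2.38-fold lower. CD74, the invariant chain, was just under 3-fold with a difference of 1.57 ± 0.56 (SD between 4 probes). In MHC class I and peptide loading 5 of 12 measured genes were at least 3-fold higher and none of the 12 was 3-fold lower (median 1.44), although 1 of these, ERAP1, rests on probes that are each bright on 1 array only. The class I gene JSP.1 stood at 4.37 and 6.72, the immunoproteasome subunit PSMB8 at -0.21 and 2.29, and beta-2-microglobulin (B2M) at 4.02 and 4.92. Probes of the class I genes can share transcripts between near-identical loci, and their values are not separate measurements.

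Interferon-response genes were split. Of 18 measured, 4 were higher, against 3.9% of all gene names. They were CXCL10, a chemokine that draws T cells (-1.24 to 1.92), IFI27 (1.57 to 4.33), BST2 (-1.68 to 0.30) and GBP4 (-1.25 to 0.66). ISG15, a defining member, stood at 4.20 and 4.19, and MX1 at 2.21 and 2.95. The list median was 0.52. Among 11 measured chemokines CXCL9, CCL28 and CCL8 were dim at 4 h and at least 7.56-fold, 5.64-fold and 5.47-fold higher, whereas the neutrophil chemokine CXCL3 stood at 4.30 and 4.60 and CCL2 at 2.24 and 2.28. None of the 12 measured cytokine and NF-kB feedback genes reached 3-fold (median 0.07).

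Stromal genes formed the other large group. Of 14 measured fibroblast and stroma genes 7 were at least 3-fold higher, against 3.9% of all gene names. None of the 14 was 3-fold lower, and the median was 2.11. Decorin (DCN), a small proteoglycan that binds collagen, stood at 0.49 at 4 h and 3.61 at 16 h, higher by 3.12 ± 0.71 (SD between 6 probes). The fibrillar collagen genes COL1A2 and COL3A1 went from -0.93 to 2.94 and from -1.11 to 1.83. COL6A1 was higher by 2.80, and THY1, LUM and PDGFRA were dim at 4 h and at least 4.51-fold, 4.01-fold and 3.56-fold higher. PDGFRA stood at 0.10 at 16 h, close to the lowest bright level. Biglycan (BGN), a proteoglycan outside the list, went from 0.83 to 5.73 on the printed probe, while a second BGN probe was dim at 16 h. COL1A1, a defining member whose product pairs with that of COL1A2 in collagen I, stood at -0.27 and 0.26 on the probe bright on both arrays, while another COL1A1 probe was dim at 4 h, stood at 1.77 at 16 h and was at least 11.3-fold higher. Other members of the list differed less, with fibronectin (FN1) at 3.27 and 3.92 and vimentin (VIM) at 4.15 and 4.69. The collagen gene COL5A2 was lower, with a difference of -0.92.

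Endothelial genes were measured in 3 of 9 cases and all 3 were higher, against 3.9% of all gene names. CLDN5, a tight junction protein of vessels, stood at -0.26 and 2.93, VWF at -1.70 and 0.55, and PECAM1 was dim at 4 h and at least 3.22-fold higher at a 16 h level of -0.05, close to the lowest bright level. CDH5, a defining member, was dim on both arrays. Of the 6 measured adipocyte genes CFD was higher by 3.11 and CIDEC by 1.80, FABP4 stood at 5.59 and 5.72, and the defining genes ADIPOQ, LEP and PLIN1 were dim on both. The erythrocyte gene HBA stood at 4.93 and 5.72 and was bright on all 7 arrays shown in the array map. HBA was the only 1 of the 7 erythrocyte genes on the array that was measured, and the defining gene HBB was dim on both.

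As summed signal in units of each array's 75th percentile, the fibroblast list went from 43.2 at 4 h to 87.5 at 16 h, the general leukocyte list from 19.1 to 37.7, the granulocyte and monocyte list from 39.0 to 109, the T and NK cell list from 16.0 to 33.7 and the endothelial list from 1.25 to 10.0. Other lists rose in this measure too, milk proteins from 427 to 777, secretory epithelium from 103 to 200 and ribosomal proteins from 4388 to 6721. Housekeeping genes went from 400 to 445 and cell cycle genes fell from 122 to 65. The fibroblast, general leukocyte and T and NK cell rises are therefore not particular to those lists. A sum also leans on its brightest members, such as PTPRC and LCP1 among leukocyte genes. The part of these cell types in the other differences was not tested. In bulk RNA, more cells of a type and more RNA per cell cannot be told apart.

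**Figure D3:**
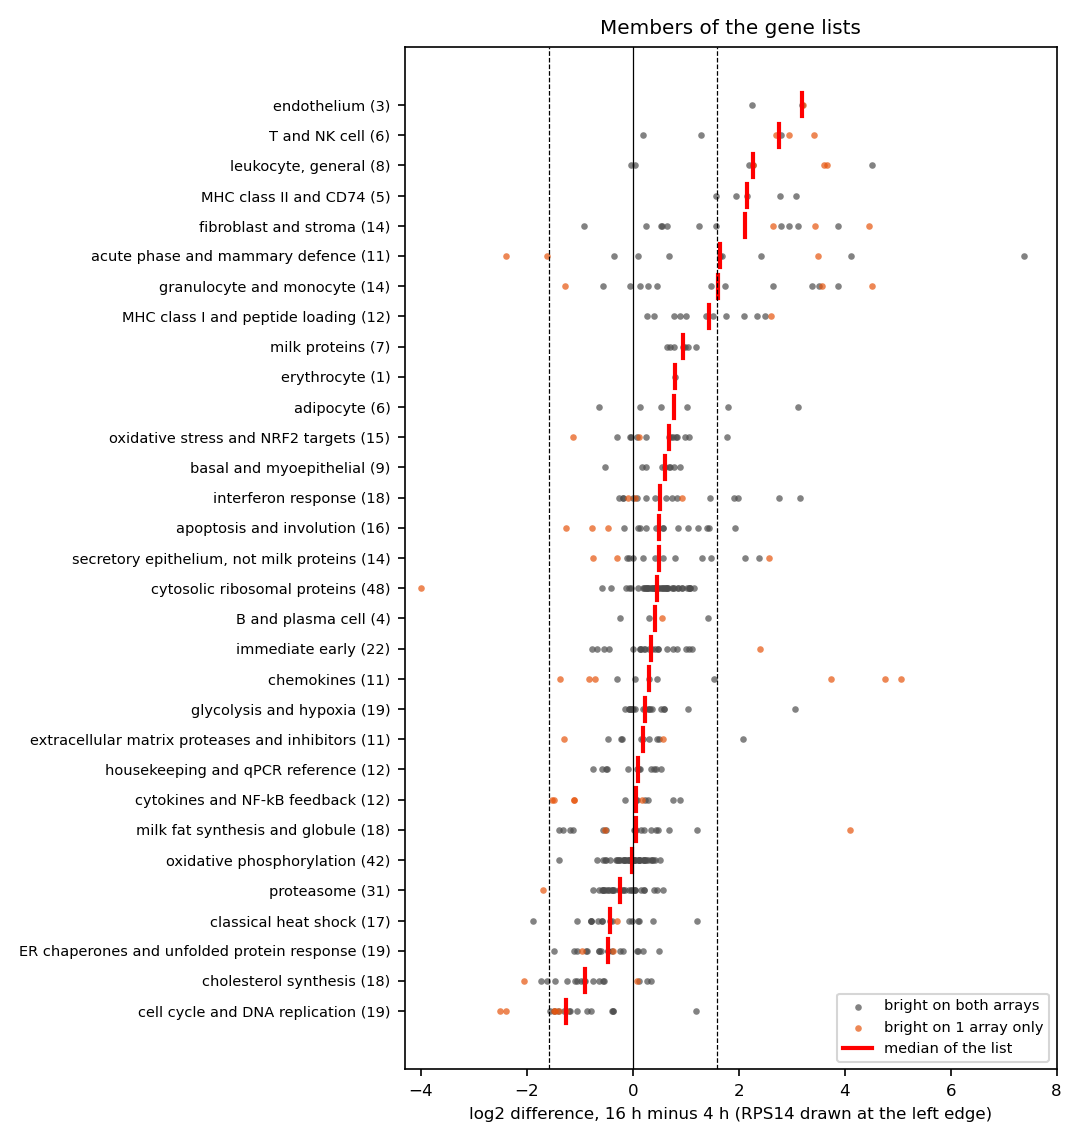
Log2 difference (x axis, 16 h minus 4 h) of every measured member of the 31 gene lists (y axis, number measured in brackets), with list medians as red bars and dashed lines at a 3-fold difference. The general leukocyte, granulocyte and monocyte, T and NK cell, stromal, endothelial and MHC class II lists have medians from 1.60 to 3.19, and the cell cycle and cholesterol lists lie lowest at -1.25 and -0.91.

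None of the 7 milk proteins, by comparison, reached 3-fold. Their differences ran from 0.64 (CSN2) to 1.19 (CSN3) with a median of 0.96, but all 7 turned negative when the arrays were scaled to their median signal (CSN2 to -0.57). CSN1S2 and CSN2 also turned negative, CSN2 to -0.10, after normexp background correction. CSN1S1 (alpha-S1-casein) stood at 5.69 at 4 h and 6.68 at 16 h, and LALBA (alpha-lactalbumin), the lactose synthase cofactor, at 5.61 and 6.38.

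Of 14 measured secretory epithelium genes other than milk proteins, 3 were at least 3-fold higher and none lower, with a median of 0.49. By gene name 3.9% of all were higher. PIGR, the receptor that carries IgA into milk, stood at 2.06 at 4 h and 4.44 at 16 h (difference 2.39 ± 0.26, SD between 2 probes). EHF, an epithelial ETS factor, was higher by 2.11, and KRT18 was dim at 4 h and at least 3.48-fold higher on 1 of its 3 probes. KRT18 stood at 0.07 at 16 h, close to the lowest bright level of -0.08. ELF5, the transcription factor of alveolar cells, stood at 4.14 and 4.94 and EPCAM at 2.56 and 2.97. The 9 basal and myoepithelial genes held no 3-fold difference, with a median of 0.62. Smooth muscle actin (ACTA2) stood at 6.39 and 7.0.

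Of the 18 measured milk fat genes none was 3-fold lower and 1 was higher, against 3.9% of all gene names higher (list median 0.06). That gene was THRSP, a regulator of lipid synthesis, which was dim at 4 h and at least 3.94-fold higher. THRSP stood at 0.25 at 16 h, near the lowest bright level of -0.08. FABP3, the fatty acid carrier of the mammary cell, was at 4.93 at 4 h and 3.53 at 16 h (difference -1.40 ± 0.93, SD between 4 probes), and lipoprotein lipase (LPL) at 4.12 and 2.80. PLIN2, which coats lipid droplets, was at 2.63 and 3.84, while FASN and SCD, enzymes of fatty acid synthesis, differed by 0.05 and 0.02. Lactoperoxidase (LPO), an antibacterial enzyme of milk outside the lists, was among the lower genes, with 4.69 at 4 h and 2.84 at 16 h. LPO was dim on CTR and at 24 h and stood at -0.20 at 8 h and -0.23 at 12 h.

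Of the 18 measured cholesterol synthesis genes, 14 lay below 0 and 3 were at least 3-fold lower, against 2.68% of all gene names. Of the 3, 2 stayed 3-fold lower at the bound and 1, HMGCS1, with the local median subtracted. The list median was -0.91. HMGCS1, which makes HMG-CoA, stood at 3.81 at 4 h and 2.09 at 16 h (3.31-fold lower, with the printed probe far from the left-out block). NSDHL, a sterol dehydrogenase, stood at 3.30 and 1.68, and SC5DL, a sterol desaturase, was dim at 16 h and at least 2.17-fold lower. The measured NSDHL probe and both SC5DL probes lay in rows 77 to 190. IDI1, an isomerase of the pathway, and CYP51A1, a sterol demethylase, stayed under 3-fold, at -1.25 ± 0.16 and -1.09 ± 0.29 (SD between 2 probes each). SREBF2, which encodes SREBP2, stood at 4.35 and 4.46. On the CTR, 8 h, 12 h and 24 h arrays the median level of the 18 genes lay between 1.07 and 1.62, whereas it was 3.34 on the 4 h array, 2.75 on the 2 h array and 2.15 on the 16 h array.

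Cell cycle and DNA replication genes had the lowest median, -1.25, and 18 of 19 measured lay below 0. With dim values as measured 2 were 3-fold lower, against 2.68% of all gene names. These were CCNA2 (cyclin A2) and AURKA (a mitotic kinase), but both were dim at 16 h and neither was 3-fold lower at the bound. The printed CCNA2 probe, in row 80, was at least 3.15-fold lower, and the other CCNA2 probe had no fold at the bound. With the local median subtracted 4 of the 19 were 3-fold lower. Genes bright on both arrays stayed under 3-fold, among them MCM7, a replicative helicase subunit, at 3.98 and 2.41, CCNB2 at 2.49 and 1.00, TYMS at 2.45 and 1.16 and PLK1 at 4.55 and 3.36. BUB1B, a spindle checkpoint kinase, was the exception at 1.2. CDK1, a defining member, was dim on both arrays.

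The heat shock list held 1 lower gene and no higher one among 17 measured, against 2.68% of all gene names lower, with a median of -0.43. HSPH1 (HSP105), a nucleotide exchange factor for HSP70, stood at 2.24 at 4 h and 0.35 at 16 h, which was 3.7-fold lower. HSP90AA1, the stress-induced HSP90, went from 5.02 to 3.96 and HSPA1A, inducible HSP70, from 2.70 to 1.91, both under 3-fold. HSPA8, the constitutive HSP70, stood at 3.00 and 3.11. HSPB1, a small heat shock protein, stood at 7.52 and 8.73, but its probe was saturated at 4 h. At 8 h the levels of HSPH1 and HSPA1A were 4.42 and 6.66. Of the 19 ER chaperone genes none reached 3-fold (median -0.47), with HSPA5 (BiP) at 3.74 and 2.69 and CRELD2 at 3.19 and 1.70.

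Other stress and metabolic lists held at most 1 higher member each, against 3.9% of all gene names. Heme oxygenase HMOX1 was higher by 1.77 (4.11 to 5.88), the anti-apoptotic BCL2 by 1.93, the vasodilator peptide ADM by 3.07 and the matrix protease ADAMTS1 by 2.07. KLF2 was dim at 4 h and at least 4.13-fold higher, and FOS and EGR1 stood at 1.77 and 3.27 at 4 h and at 2.61 and 4.39 at 16 h. Cathepsin D (CTSD), a lysosomal protease, was higher by 1.39 ± 0.45 (SD between 3 probes). Oxidative phosphorylation (42 genes), proteasome (31) and housekeeping genes (12) had medians of -0.02, -0.24 and 0.10.

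Of the genes brightest at 16 h with no bright probe at 4 h, RNASE1, a secreted ribonuclease of endothelium, was at least 30.0-fold higher, CDH16, a cadherin, at least 20.4-fold, CHI3L1, a chitinase-like glycoprotein, at least 19.5-fold and LTC4S, the leukotriene C4 synthase, at least 19.5-fold, with HPCAL4 and PTPRD at least 22.3-fold and 16.0-fold higher. The brightest at 4 h with no bright probe at 16 h were RPS14, ROMO1, FBXO16, C29H11orf67, FHOD1 and POR, with bounds from 93.3-fold to 8.80-fold lower. All 6 of these probes lay in rows 77 to 190 around the left-out block, read the shared lowest value of the 16 h array (-2.39) and were bright on the other 5 arrays. RPS14 was the only one of 48 ribosomal protein genes that was 3-fold lower, the list median being 0.46.

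Among the largest lower genes bright on both arrays, ARPC1A, a subunit of the Arp2/3 complex, stood at 6.52 and 4.82, ABCF1 at 2.43 and 0.59 and NOL7 at 2.40 and 0.70. CASC3 and SMN1 (-1.74 and -1.59) lay where the nearest probes also had low differences, with medians of -1.29 and -1.24 within 4 spots. Of 4 genes with several probes bright on both arrays and a mean 3-fold lower, none had every probe 3-fold lower, whereas of 40 such higher genes 27 had every probe 3-fold higher.

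The other arrays place these differences. Of 60 list genes at least 3-fold higher at 16 h, 48 were bright at 2 h, and 22 of the 60 were higher at 2 h than at 16 h. On the CTR, 8 h, 12 h and 24 h arrays 14, 16, 18 and 11 of the 60 were bright. Over all probes 40.2% were bright at 2 h, against 26.5%, 27.8%, 33.5% and 23.3% on CTR, 8 h, 12 h and 24 h. The lowest bright level was also lower at 2 h (-1.95) than on those arrays (-1.04 to 0.24). The counts of bright genes therefore also carry differences in detection between arrays. All 6 higher general leukocyte genes were above their 16 h level at 2 h, with CD52 at 4.29 and TYROBP at 5.19, so that 4 h lay below both neighbours of slide 2 for them. Of the 7 higher stromal genes 4 were bright at 4 h and 3 at 2 h, and all 4 were lower at 2 h than at 4 h. DCN, averaged over probes mostly dim there, stood at -3.72 at 2 h and between -2.68 and -1.75 on CTR, 8 h, 12 h and 24 h. C3 stood at 2.96 at 2 h and was dim on CTR, 8 h, 12 h and 24 h.

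**Figure D4:**
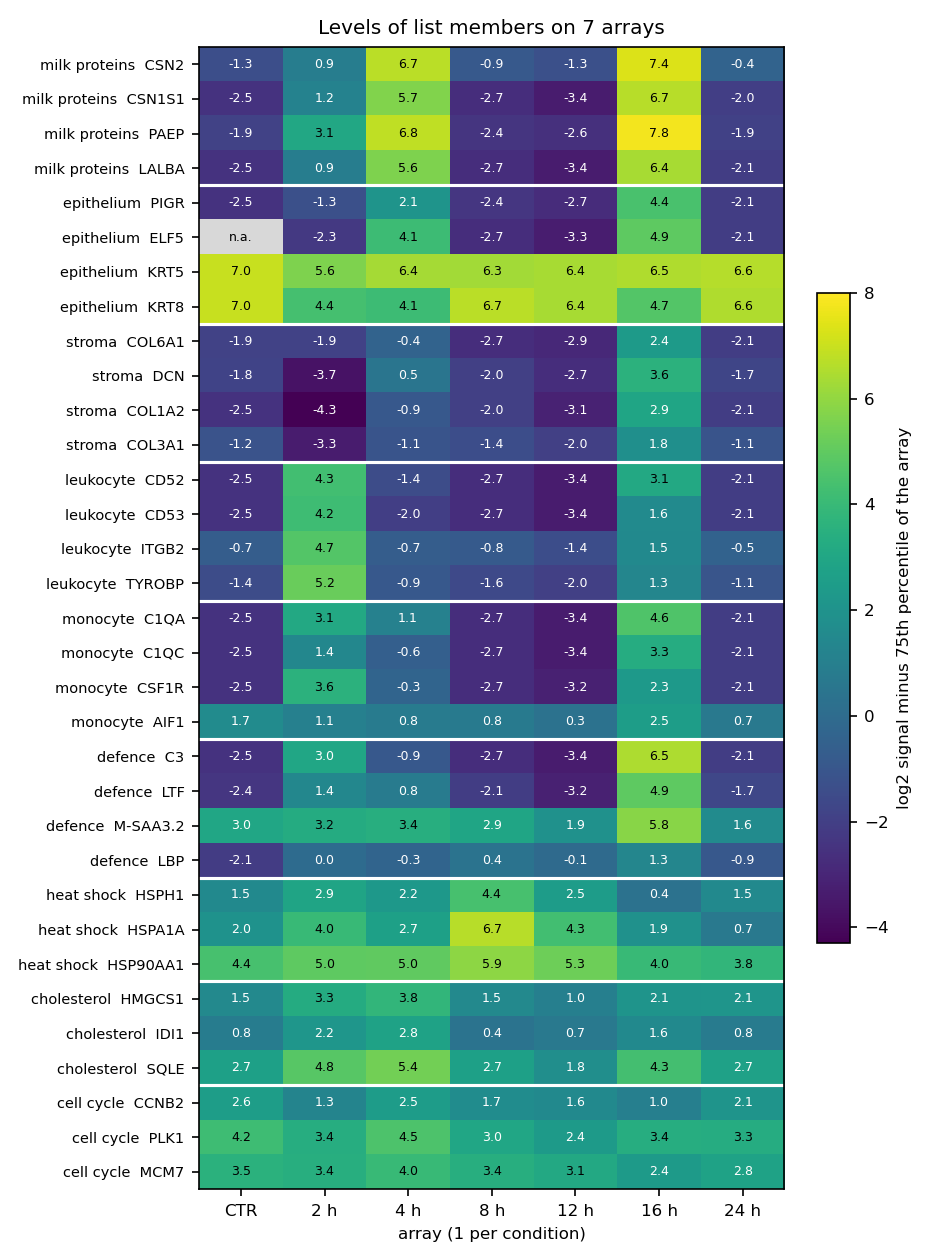
Level (colour and number, log2 signal minus the 75th percentile of the array) of selected list members on 7 arrays in order of recovery time, 1 array per condition, with the 30 min array not used and n.a. for a probe in a dark region of CTR. Milk proteins are high at 4 h and 16 h. The leukocyte genes drawn are high at 2 h and 16 h, and the stromal genes drawn at 16 h. Both sets were picked from the higher members of their lists. COL1A1, not drawn, stood at 0.26 at 16 h and between 1.23 and 1.64 on CTR, 8 h, 12 h and 24 h. PTPRC, also not drawn, stood at 3.40 at 4 h and 3.37 at 16 h. The lowest numbers are readings of dim probes.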

How the data were processed

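Buffalo MEC RNA was labelled with Cy3 and hybridised to a 1-colour Agilent bovine array, 1 array per condition. The authors deposited scanner files from Feature Extraction 9.5.3.1, whose background-corrected processed signal (a linear intensity) was used, and a table of GeneSpring log2 values centred per probe over the 8 arrays, used as an alternative only. Each array's log2 intensities were scaled by subtracting their 75th percentile (control probes excluded), and the 16 h and 4 h arrays were compared over probes that either of them measured as well above background. Outlier-marked spots and the dark block (48 rows by 22 columns) were left out, and spots of 1 probe were averaged. With 1 array per condition a 3-fold difference stood in for a test. No depth applies to arrays, and their number limits precision. Named genes were drawn from the 12 largest differences each way among genes bright and unsaturated on both arrays, the 6 brightest genes bright on 1 array only each way, up to 6 list members at least 3-fold apart, the first 3 members of each cell type list, and the milk proteins. Not every gene of these sets is described above, SORL1 (higher) and SERPINB2, WDR62 and ZNF674 (lower) being among those left out. Other genes named in the text are list members chosen after their values were seen. The comparison, the 31 gene lists and the rules were chosen with earlier results of these data known. The 30 min array was not used for levels because its scanner values were unreliable (1462 outlier-marked spots), nor were probes in a dark region of CTR. Python 3.11.15 (numpy 2.4.6, pandas 2.3.3, and statsmodels 0.14.6 for the loess alternative) was used. R 4.3.3 with limma 3.58.1 gave the normexp and quantile alternatives, and the counting was tested on simulated data. Alternatives were other scalings, background corrections and filters, the position of the probe, the cutoff, and the deposited log2 values.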

Additional observations from a re-analysis of the deposited data

How the results depend on the processing

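No paired analysis was possible because each condition has 1 array and the result comes from no test. No gene named as at least 3-fold apart changed sign under any of the alternatives run. The counts of 573 higher and 580 lower probes moved most with scaling and with the treatment of dim probes. They were 263 and 5073 with the array median as scale (median difference -1.24, higher share 4.93% against 49.7%), 412 and 2774 after loess (12.9%), 563 and 1260 after quantile normalization (30.9%), 300 and 366 after normexp correction, 245 and 136 with a common floor (64.3%), 332 and 57 for probes bright on both arrays (85.3%), and 21388 and 580 with no filter on dim probes (97.4%, median 1.62). With the dim array at its bound 136 were lower (80.8%), without the rows around the block 191 (72.9%), by gene name 279, and at 2-fold 1371 higher and 1741 lower. The bound and the rows around the block were alternatives added after seeing the data, as was the local median. The deposited log2 values gave 567 higher and 593 lower.

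List medians, taken relative to the median of all gene names, moved as well. After loess they were 1.51 for fibroblast, 2.12 for endothelium and 1.77 for T and NK cell genes. Normexp gave 0.46 for milk proteins, 0.13 for basal, 1.48 for fibroblast, 2.02 for endothelium, 1.68 for leukocyte, 1.11 for granulocyte and monocyte, 1.94 for T and NK cell and 1.12 for acute phase genes. A common floor gave 0.53 for fibroblast, 0.62 for endothelium, 1.48 for leukocyte, 0.57 for granulocyte and monocyte, 0.73 for T and NK cell and 0.69 for acute phase genes. Probes bright on both arrays gave 1.14 for fibroblast, 2.61 for endothelium and 1.17 for T and NK cell genes, and the bound 2.25 for endothelium and 2.09 for T and NK cell genes. Without the rows around the block endothelium was 2.63. With no filter on dim probes, where most probes read the lowest value of each array, the medians were -0.46 for milk proteins, -1.25 for milk fat, -0.024 for secretory, -0.80 for basal, 0.84 for endothelium, 0.79 for leukocyte, 0.34 for T and NK cell, 0.030 for MHC class I, -0.21 for interferon, -1.69 for heat shock, -1.80 for ER chaperone, -0.999 for immediate early, -2.24 for cholesterol, -2.27 for cell cycle, -0.94 for matrix protease, -0.85 for apoptosis, -0.71 for oxidative stress, -1.15 for glycolysis, -0.95 for ribosomal, -1.43 for oxidative phosphorylation, -1.66 for proteasome and -1.31 for housekeeping genes, and 0.24 for the fibroblast, granulocyte and monocyte, MHC class II, acute phase, adipocyte and erythrocyte lists alike.

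Across all alternatives run C3 stayed between 5.62 and 7.39, DCN between 1.92 and 3.12 and HSPH1 between -3.09 and -1.85. The dimmer 16 h array limits what can be said of lower genes, since 5252 compared probes were bright at 4 h only.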
